A study of Mus musculus with 46 samples.

Results

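Smooth muscle contractile genes encode the actins, the myosin subunits and the actin-binding proteins with which the walls of airways and blood vessels develop force. The genes described here are Acta2, Actg2, Tagln, Myh11, Cnn1, Myl9, Des and Tpm2, taken by name, with every probe set that the platform annotation gives to 1 of these symbols alone. This gave 13 of the 36701 probe sets of the study and 8 of its 15964 annotated genes. Of the 13 probe sets, 9 lie on array type A, 3 on type B and 1 on type C.

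In smooth muscle, calcium activates a kinase that phosphorylates the regulatory light chain of myosin, and myosin then pulls on actin filaments anchored at dense bodies. Calponin, transgelin and tropomyosin bind the actin filament, and desmin filaments link dense bodies to each other. In the lung these proteins are found around bronchi and vessels, in pericytes and in myofibroblasts, and many of their genes are switched on by serum response factor with its partner myocardin through a short promoter element called the CArG box.

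RNA came from the lungs of wild type mice and of mice mutated in Nrf2. Both were sampled at time 0 and when they had breathed 100% oxygen for 24, 48 or 72 h, and 46 arrays of the 3 types A, B and C were read. The Nrf2 protein, product of the gene Nfe2l2, turns on antioxidant and detoxification genes, and prolonged breathing of pure oxygen injures the lung. The labels name the mutation and the time only, with neither the allele nor the strain, sex or age of the animals. Each of the 8 groups had 2 arrays of each type, called replicates 1a and 1b, but on type A wild type at 24 h and the mutant at 0 h had replicate 1b alone. Whether 1a and 1b came from different animals is not in the labels, so the p-values reflect the spread between samples, which may be technical.

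On type A, Nfe2l2 signal lay between 2428 and 4488 in the 7 wild type samples and between 302.5 and 448.4 in the 7 mutant ones, without overlap. The mutant 0 h arrays stood apart from the rest. Their mean correlation with the other arrays was 0.916 on type A, where the others ranged from 0.951 to 0.964, and between 0.882 and 0.903 on types B and C, where the others ranged from 0.905 to 0.950. They also carried the highest ratios of 3′ to 5′ Gapdh signal, a measure of RNA integrity, at 1.67 to 2.26 against 0.858 to 1.54 on all other arrays. On the mutant 0 h array of type A the summed signal of 5 skeletal muscle markers was 26937, against 2754 to 2793 in wild type at 0 h, and that of 4 squamous epithelium markers was 20377, against 1263 to 2357 on every other array. Rises and falls of the 8 genes in the mutant are therefore also given against wild type at 0 h, and so are those of other genes at 72 h.

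The promoters of 5 of the 8 genes (Acta2, Cnn1, Des, Myl9 and Tpm2) were found among the RefSeq start site windows of GRCm38.p6, and those of Actg2, Myh11 and Tagln were not matched. The 250 bases before each start were searched for the CArG box, which is CC, then 6 bases that are each A or T, then GG, and for the same element with 1 G or C among those 6 central bases; either pattern can be read on both strands. The strict form stood in 482 of all 32851 windows (1.467%) and in 1 of the 5 members' windows, that of Myl9. The form with 1 G or C stood in 2380 windows (7.245%) and in 2 of the 5, those of Acta2 and Myl9. The matches are printed below, in capitals with 10 bases on each side, because this element is the textbook regulatory sequence that contractile genes share. They are matches of letters and say nothing of binding. Both Acta2 matches lie inside the annotated span of the gene, chr19:34240336-34255585, so the start used for it is not the outer end of that span.
Acta2, 84 bases before the start, minus strand, chr19:34255438-34255467: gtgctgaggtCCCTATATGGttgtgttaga
Acta2, 34 bases before the start, minus strand, chr19:34255388-34255417: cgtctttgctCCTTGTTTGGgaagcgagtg
Myl9, with the strict form, plus strand, chr2:156775293-156775322: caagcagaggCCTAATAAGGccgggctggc
Myl9, 99 bases before the start with 1 G, plus strand, chr2:156775355-156775384: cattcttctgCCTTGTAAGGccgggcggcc

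Under oxygen 5 of the 8 contractile genes, Acta2, Actg2, Tagln, Myh11 and Cnn1, were higher in the Nrf2 mutant than in wild type when averaged over 24, 48 and 72 h, and none was called lower. In that comparison 1.25% of all tested probe sets were called and 0.589% were higher. In wild type Tagln, Cnn1 and Acta2 fell during exposure and Myh11 rose. In the mutant Cnn1, Myh11, Acta2, Actg2 and Tagln ended above the 0 h array at 72 h, and Tpm2 ended below it. Against wild type 0 h the mutant's 72 h calls of Acta2 and Tpm2 were not kept. On a second tested Myh11 probe set, on type B, its called differences from 0 h had the opposite sign in both genotypes. The mean genotype difference of Myh11 there was 0.20 ± 0.10 and not called. A second Acta2 probe set, on type C, turned the sign of its wild type 48 h, mutant 24 h and mean genotype differences, with none called. Myl9, Des and Tpm2 did not differ between genotypes beyond the threshold at any time. In whole lung RNA, more cells of a type and more RNA per cell cannot be told apart.

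**Figure D1:**
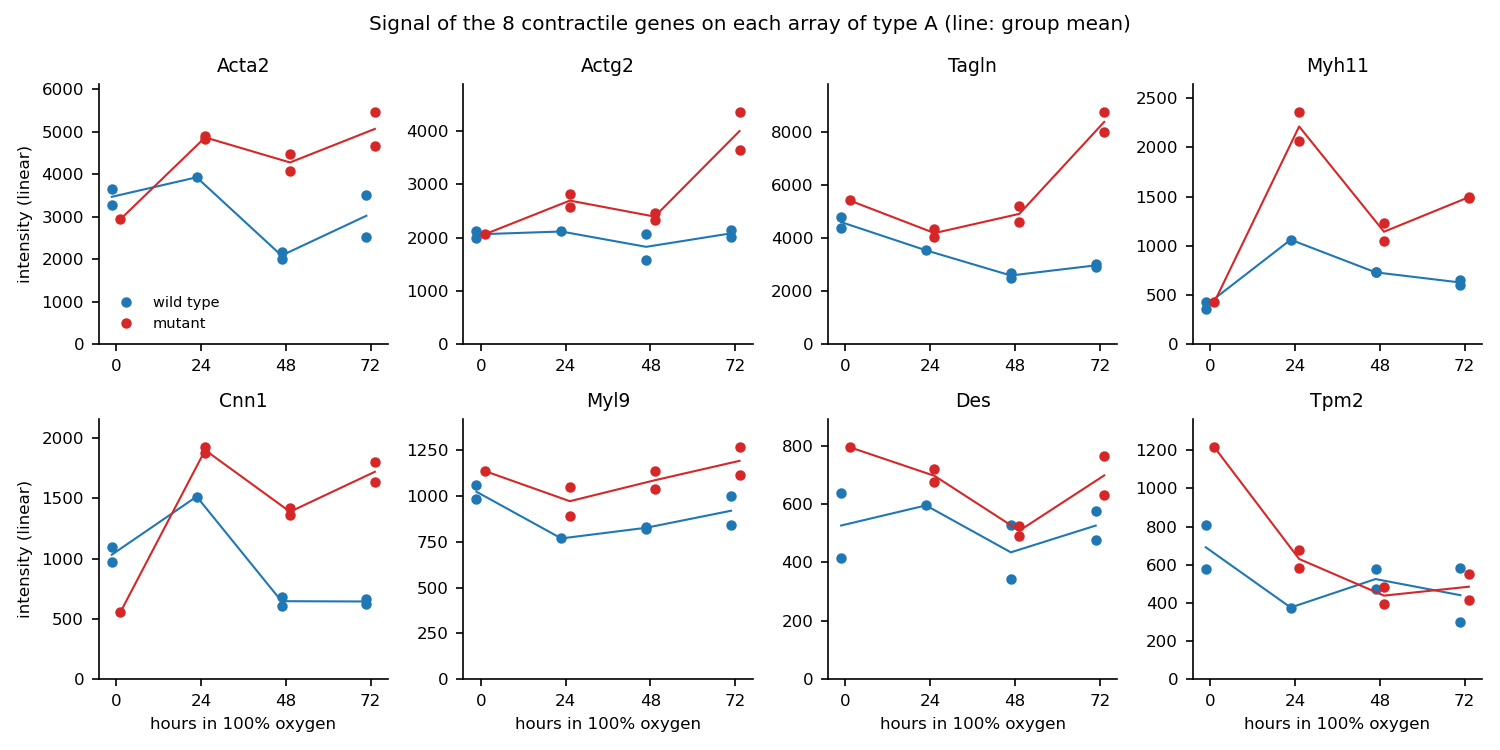
Deposited signal intensity (vertical axis, linear) of the 8 genes on each array of type A against hours in 100% oxygen, with wild type in blue and the mutant in red; points are arrays and lines join group means. Tagln reached 8005 and 8727 in the mutant at 72 h, above every other array, while its wild type arrays at 48 and 72 h lay between 2480 and 3036.

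Values are the deposited signal intensities, and each gene is described by its brightest tested probe set, which for all 8 genes was on type A. A probe set was tested where it exceeded the 40th percentile of its array type on at least 2 arrays, and these 8 did so on all 14 arrays of type A. Differences are log2 differences ± SE of intensity plus the 25th percentile of the array type (78.5 on type A), which shrinks the change of dim probe sets. Adjusted p-values are from limma, with Benjamini-Hochberg adjustment over the 26821 tested probe sets of the 3 array types, and a gene is said to have changed at an adjusted p under 0.05.

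Acta2 (chr19:34240336-34255585 on GRCm38.p6) encodes the smooth muscle alpha actin of vessel and airway walls and of myofibroblasts, and its promoter holds the first pair of CArG matches printed here. Its wild type intensities were 3275 and 3659 at 0 h, 3926 at 24 h, 1994 and 2178 at 48 h and 2530 and 3513 at 72 h. In the mutant they were 2937 at 0 h, 4908 and 4820 at 24 h, 4069 and 4480 at 48 h and 4673 and 5454 at 72 h. All 6 mutant oxygen arrays lay above all 5 wild type oxygen arrays, and the lowest group was wild type at 48 h, which overlapped no other. Wild type Acta2 fell by 0.71 ± 0.18 at 48 h (adjusted p = 0.0459) and stood at -0.21 ± 0.18 at 72 h (adjusted p = 0.578). Mutant Acta2 rose by 0.71 ± 0.23 at 24 h (adjusted p = 0.0423) and 0.77 ± 0.23 at 72 h (adjusted p = 0.0347). Both calls were lost when wild type 0 h was the reference, at 0.48 ± 0.18 (adjusted p = 0.132) and 0.53 ± 0.18 (adjusted p = 0.0887). Averaged over the oxygen times it was 0.69 ± 0.11 higher in the mutant, or 1.61-fold (adjusted p = 0.0158). At single times the genotype difference was 1.01 ± 0.18 at 48 h (adjusted p = 0.0573) and 0.74 ± 0.18 at 72 h (adjusted p = 0.132), both short of the threshold.

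The Acta2 calls within a genotype were close to the threshold. The wild type fall was lost without either replicate of wild type 0 h or 48 h or of the mutant at 24, 48 or 72 h (adjusted p from 0.0528 to 0.228). The mutant 24 h rise was lost without either replicate of wild type 0 h or 48 h or of the mutant at 24 or 48 h (0.0535 to 0.123), and the 72 h rise without either mutant 72 h replicate (0.0541 and 0.124). Of the replicates left out 1 at a time, wild type 48 h 1a alone ended the call of the genotype mean (0.61, adjusted p = 0.0568). With a floor in place of the added value the wild type fall and the mutant 24 h rise were lost, and likewise with no filter on dim probe sets (adjusted p from 0.0516 to 0.0582). A dimmer Acta2 probe set on type C gave 363 and 354, 491 and 521, 580 and 392, and 277 and 472 in wild type at 0, 24, 48 and 72 h. In the mutant it gave 582 and 128, 99.1 and 458, 244 and 113, and 694 and 633. Replicates differed widely in the mutant before 72 h, the mean genotype difference was -0.41 ± 0.30 (adjusted p = 0.701), opposite in sign to that on type A, and none of its differences passed the test.

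Actg2 (chr6:83512909-83536251) encodes the gamma smooth muscle actin that is best known from the gut. Its probe set is of a kind that the array design marks as shared by similar transcripts, so signal from other actins cannot be told apart. Wild type intensities were 2121 and 2003 at 0 h, 2116 at 24 h, 1586 and 2071 at 48 h and 2147 and 2017 at 72 h, so the wild type groups overlapped. Mutant intensities were 2065 at 0 h, 2812 and 2581 at 24 h, 2323 and 2468.5 at 48 h and 4353 and 3649 at 72 h. The mutant 72 h arrays stood clear of all others, and all 6 mutant oxygen arrays lay above all 5 wild type ones. Mutant Actg2 rose by 0.92 ± 0.21 at 72 h against 0 h (adjusted p = 0.0108), which was lost without mutant 72 h replicate 1a (0.80, adjusted p = 0.0561) and in a fit of only the 2 groups compared (adjusted p = 0.09265). It was 0.91 ± 0.17 higher in the mutant at 72 h (1.88-fold, adjusted p = 0.0418) and 0.55 ± 0.11 higher over the oxygen times (adjusted p = 0.0383).

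Both Actg2 genotype calls depended on single libraries and on the settings. With a floor in place of the added value both were lost (adjusted p = 0.05875 at 72 h and 0.0532 for the mean), and the 72 h call also with quantile normalization (0.0519) or no filter (0.0557). The 72 h difference was lost without either replicate of the mutant at 24, 48 or 72 h or of wild type at 0 or 72 h (adjusted p from 0.0679 to 0.255), and the mean without either replicate of those same groups or wild type 48 h replicate 1a (0.0511 to 0.104). A dim Actg2 probe set on type B was not tested.

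Tagln (chr9:45929628-45936058) encodes transgelin, or SM22 alpha, an actin-binding protein and an early marker of smooth muscle. Wild type intensities were 4801 and 4391 at 0 h, 3534 at 24 h, 2694 and 2480 at 48 h and 3036 and 2901 at 72 h. In the mutant the gene gave 5411 at 0 h, 4037 and 4329 at 24 h, 5216 and 4597 at 48 h and 8005 and 8727 at 72 h. All 4 wild type arrays at 48 and 72 h lay below every other array, and the mutant 72 h arrays above every other array. Wild type Tagln fell by 0.81 ± 0.15 at 48 h (adjusted p = 0.0124) and by 0.62 ± 0.15 at 72 h (adjusted p = 0.0334). Mutant Tagln did not pass the test at 24 or 48 h (-0.37 ± 0.19 and -0.14 ± 0.19) and rose by 0.62 ± 0.19 at 72 h (adjusted p = 0.037). Between 48 and 72 h it rose by 0.76 ± 0.15 in the mutant (adjusted p = 0.0317), and the same step in wild type was 0.19 ± 0.15 (adjusted p = 0.669). It was higher in the mutant by 0.90 ± 0.15 at 48 h (adjusted p = 0.0386), 1.47 ± 0.15 or 2.77-fold at 72 h (adjusted p = 0.00177) and 0.87 ± 0.09 over the oxygen times (adjusted p = 0.00117).

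The Tagln call at 72 h between genotypes held when any 1 replicate was left out, and that for the mean without any 1 that could be left out. The wild type fall at 48 h was lost without either replicate of wild type 0 or 48 h (adjusted p from 0.0593 to 0.0888), and that at 72 h without either of wild type 0, 48 or 72 h (0.0513 to 0.167). The mutant rise at 72 h was lost without either replicate of mutant 24 or 72 h or wild type 48 h (0.0503 to 0.118). The mutant step from 48 to 72 h was lost without either replicate of any mutant oxygen group or of wild type 0 or 48 h (0.0507 to 0.183), and the genotype difference at 48 h without either of those or of wild type 72 h (0.0533 to 0.267).

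Cnn1 (chr9:22099221-22109221) encodes calponin 1, which binds actin and slows the myosin motor, and is one of the more specific marks of differentiated smooth muscle. Wild type intensities were 970 and 1097 at 0 h, 1516 at 24 h, 686 and 608 at 48 h and 621 and 668 at 72 h. In the mutant they were 554 at 0 h, 1926 and 1877 at 24 h, 1417 and 1363 at 48 h and 1804 and 1640 at 72 h. The lowest array of all was the mutant at 0 h, the next were wild type at 48 and 72 h, and the single wild type 24 h array lay above both mutant 48 h arrays. Wild type Cnn1 fell by 0.62 ± 0.15 at 48 h (adjusted p = 0.037) and by 0.62 ± 0.15 at 72 h (adjusted p = 0.0317). Mutant Cnn1 rose by 1.65 ± 0.18 at 24 h, 1.21 ± 0.18 at 48 h and 1.51 ± 0.18 at 72 h (adjusted p = 0.000247, 0.00176 and 0.000341). Against wild type 0 h in place of the mutant's own 0 h array, the mutant was 0.83 ± 0.15 higher at 24 h (adjusted p = 0.00797), 0.40 ± 0.15 at 48 h, which did not pass (adjusted p = 0.149), and 0.70 ± 0.15 at 72 h (adjusted p = 0.0128).

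Between genotypes Cnn1 was the only one of the 8 genes that differed at 0 h, where it was lower in the mutant by 0.81 on the log2 scale (-0.81 ± 0.18, adjusted p = 0.0466). The mutant side is 1 type A array, which stood apart from the rest and could not be left out. This call was lost with quantile normalization (-0.74 ± 0.19) and in a fit of only the groups compared (-0.81 ± 0.26). Under oxygen Cnn1 was higher in the mutant by 1.02 ± 0.15 at 48 h (adjusted p = 0.0176), 1.32 ± 0.15 or 2.49-fold at 72 h (adjusted p = 0.00307) and 0.88 ± 0.09 over the oxygen times (adjusted p = 0.00108). The 72 h call held without any 1 replicate, and that for the mean without any 1 that could be left out. The 0 h difference was lost without either replicate of wild type 0, 48 or 72 h or of the mutant at 24, 48 or 72 h (adjusted p from 0.0583 to 0.154), and the 48 h difference without either replicate of its own groups (0.0909 to 0.183). The wild type fall at 48 h was lost without either replicate of wild type 0 or 48 h or of mutant 24 or 48 h (0.0515 to 0.208), and that at 72 h without either of wild type 0 or 72 h (0.0827 to 0.177). The Cnn1 probe set carries the array design's mark for probes shared between transcripts.

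Myh11 (chr16:14194527-14292188) encodes the smooth muscle myosin heavy chain, the motor itself. Wild type intensities on type A were 360 and 429 at 0 h, 1062 at 24 h, 731 and 731 at 48 h and 599 and 656 at 72 h. In the mutant they were 428 at 0 h, 2069 and 2357 at 24 h, 1233 and 1054 at 48 h and 1489 and 1501 at 72 h. In both genotypes the 0 h arrays were lowest and the 24 h arrays highest. Wild type Myh11 rose by 1.27 ± 0.19 at 24 h (adjusted p = 0.0119) and by 0.78 ± 0.16 at 48 h (adjusted p = 0.0176), and was 0.58 ± 0.16 at 72 h (adjusted p = 0.0513). Mutant Myh11 rose by 2.18 ± 0.19 or 4.52-fold at 24 h, 1.27 ± 0.19 at 48 h and 1.64 ± 0.19 at 72 h (adjusted p = 8.21e-05, 0.0019 and 0.000294). It was higher in the mutant by 1.16 ± 0.16 at 72 h (adjusted p = 0.00705) and by 0.92 ± 0.10 over the oxygen times (adjusted p = 0.00116). The 24 h difference of 1.003 ± 0.19 did not pass (adjusted p = 0.0891).

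A second Myh11 probe set, on type B, did not follow the first. It gave 980 and 795, 635 and 740, 675 and 738, and 722 and 671 in wild type at 0, 24, 48 and 72 h. The mutant arrays gave 1123 and 955, 651 and 758, 891 and 836, and 790 and 1009. Here the 0 h arrays were the highest of each genotype on average, where they were lowest on type A. Its difference from 0 h was -0.31 ± 0.17 in wild type and -0.49 ± 0.17 in the mutant at 24 h (adjusted p = 0.441 and 0.0603), and its mean genotype difference was 0.20 ± 0.10 (adjusted p = 0.517), so the direction of change with oxygen depends on the probe set. On type A, the wild type 24 h rise was lost without wild type 0 h replicate 1a (adjusted p = 0.0663) and that at 48 h without either replicate of wild type 0 or 48 h (0.0607 to 0.11). The 72 h genotype difference was lost without either replicate of its own groups (0.0512 to 0.069).

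**Figure D2:**
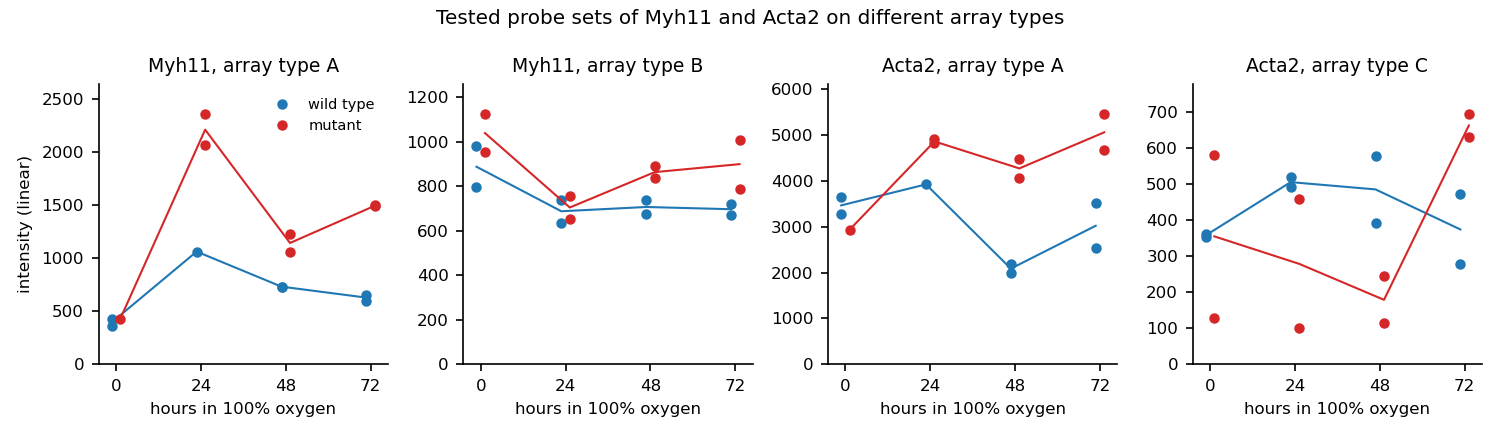
Deposited intensity (linear, vertical axis) of the tested probe sets of Myh11 on array types A and B and of Acta2 on types A and C against hours in oxygen, with points for arrays and lines for group means in wild type (blue) and mutant (red). On type A Myh11 was lowest at 0 h and on type B highest, and the mutant Acta2 arrays on type C scattered from 99.1 to 694.

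Myl9 (chr2:156775408-156781657) encodes the regulatory light chain whose phosphorylation starts contraction, and its promoter holds the strict CArG match. Wild type intensities were 987 and 1061 at 0 h, 769 at 24 h, 823 and 831 at 48 h and 840 and 1000.1 at 72 h. Mutant intensities were 1137 at 0 h, 1051 and 893 at 24 h, 1036 and 1136 at 48 h and 1267 and 1118 at 72 h. The range over all arrays was narrow, with the highest group mean 1.55 times the lowest, and the genotypes overlapped under oxygen. No comparison passed the test, and the mean genotype difference was 0.34 ± 0.10 (adjusted p = 0.186).

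Des (chr1:75360292-75368579) encodes desmin, the intermediate filament protein of smooth, skeletal and heart muscle. Its intensities were 638 and 416 in wild type at 0 h, 596 at 24 h, 527 and 342 at 48 h and 576 and 477 at 72 h. In the mutant they were 796 at 0 h, 675 and 720 at 24 h, 527 and 492 at 48 h and 632 and 765 at 72 h. The mutant 0 h array was the highest of all, and most neighbouring groups overlapped. No difference passed the test, and the mean genotype difference was 0.26 ± 0.14 (adjusted p = 0.566).

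Tpm2 (chr4:43513726-43523583) encodes beta tropomyosin, which lies along the actin filament and is found in smooth and skeletal muscle. Wild type intensities were 807 and 575 at 0 h, 375 at 24 h, 473 and 576 at 48 h and 581 and 299 at 72 h. In the mutant the arrays gave 1216 at 0 h, 679 and 581 at 24 h, 395 and 480.5 at 48 h and 552 and 416 at 72 h. The mutant 0 h array, where skeletal muscle markers were also highest, stood alone above all others. Against that array Tpm2 fell in the mutant by 1.33 ± 0.33 at 48 h (adjusted p = 0.0194) and by 1.21 ± 0.33 at 72 h (adjusted p = 0.0245). Against wild type 0 h the same mutant groups were at -0.56 ± 0.27 and -0.45 ± 0.27 (adjusted p = 0.268 and 0.345), so the calls are not kept with that reference. The 48 h call was also lost without mutant 48 h replicate 1a (adjusted p = 0.0887) and the 72 h call without mutant 72 h replicate 1b (adjusted p = 0.0975). A second Tpm2 probe set on type A was too dim to test.

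In wild type lung Myh11 rose and Tagln, Cnn1 and Acta2 fell, at times given here, and the other 4 genes were not called. At 24 h Myh11 alone rose, where 1.72% of all tested probe sets were called and 0.962% were called higher. At 48 h Myh11 was higher and Tagln, Cnn1 and Acta2 lower, against 6.68% of all probe sets called, 3.28% higher and 3.40% lower. The median log2 difference of the 8 genes at 48 h was -0.31, that of all tested probe sets -0.03. At 72 h Tagln and Cnn1 were lower and none higher, with 7.86% of all probe sets called and 3.59% called lower, and the median was -0.18 against -0.06. Between 48 and 72 h none of the 8 was called by limma and 1 had an unadjusted p under 0.05 (Acta2, 0.50 ± 0.18), where 0.597% of all probe sets were called. Fitted on only the groups compared, none of these wild type calls was made.

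In the mutant, the called genes rose except for Tpm2. At 24 h Myh11, Cnn1 and Acta2 were higher and none lower, against 24.4% of all probe sets called and 12.3% called higher. At 48 h Cnn1 and Myh11 were higher and Tpm2 lower, against 17.9% called, 9.62% higher and 8.28% lower. At 72 h Cnn1, Myh11, Actg2, Acta2 and Tagln were higher and Tpm2 lower, so 6 of 8 were called where 21.6% of all probe sets were, 11.0% higher and 10.5% lower. The median of the 8 genes at 72 h was 0.69, that of all tested probe sets -0.03. From 48 to 72 h Tagln alone rose, with 2.05% of all probe sets called and 0.906% called higher. Since the single type A array of the mutant at 0 h stood apart, the same mutant arrays were set against wild type at 0 h.

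Set against wild type 0 h, 2 of the 8 genes were higher in the mutant at 24 h, Myh11 (2.28 ± 0.16) and Cnn1, where 10.3% of all probe sets were called and 5.12% were higher. At 48 h only Myh11 was higher (1.37 ± 0.16), against 6.47% called and 3.56% higher. At 72 h Myh11 (1.74 ± 0.16), Actg2 (0.93 ± 0.17), Tagln (0.85 ± 0.15) and Cnn1 were higher, against 12.9% called and 6.25% higher, and Acta2 at 0.53 ± 0.18 did not pass (adjusted p = 0.0887). None of the 8 was lower at any of these times.

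**Figure D3:**
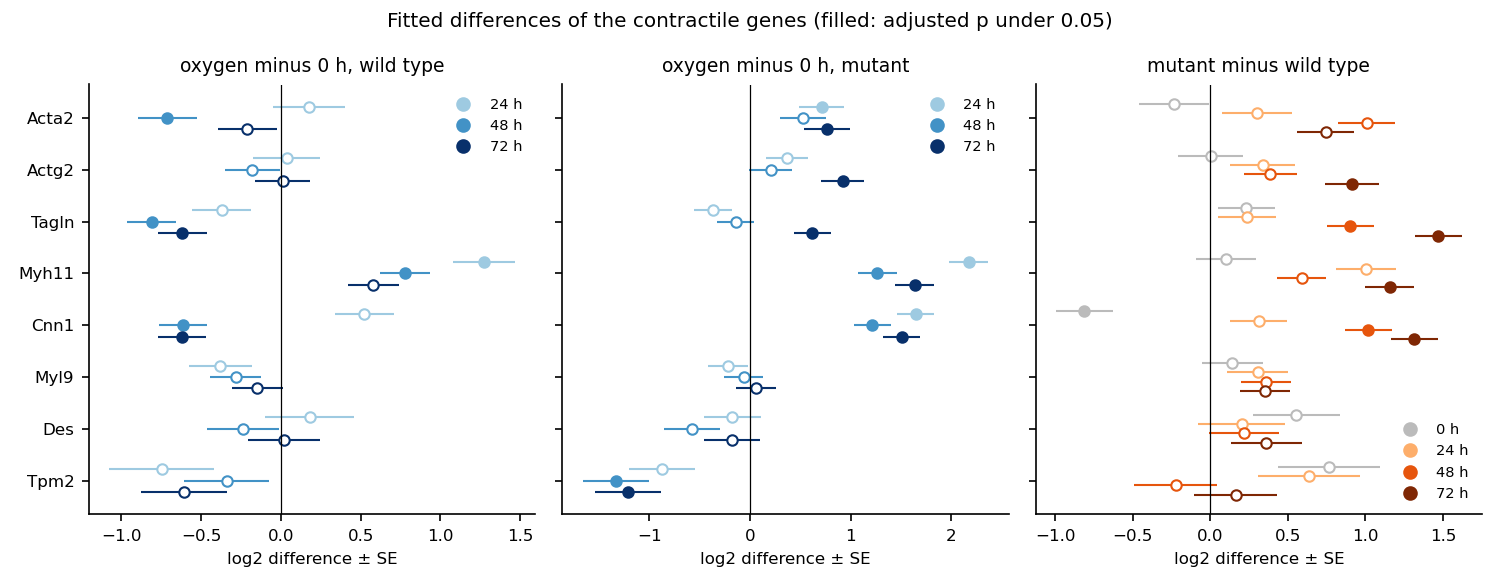
Log2 differences (horizontal axis, ± SE) of the 8 genes between each oxygen time and 0 h in wild type (left) and mutant (middle), and between genotypes at each time (right); filled points have an adjusted p under 0.05. In the right panel Tagln moved from 0.24 at 24 h to 1.47 at 72 h, and Cnn1 from -0.81 at 0 h to 1.32 at 72 h.

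Between genotypes, none of the 8 genes was called higher in the mutant at 0 or 24 h, 2 were at 48 h and 4 at 72 h. At 0 h Cnn1 alone differed and was lower, where 2.75% of all probe sets were called and 1.29% were lower. At 24 h all 8 differences were positive, but none was called by limma and 1 had an unadjusted p under 0.05, where 0.157% of all probe sets were called. At 48 h Cnn1 and Tagln were higher and none lower, against 0.377% of all probe sets called and 0.119% higher, and 6 of 8 had an unadjusted p under 0.05. At 72 h Tagln, Cnn1, Myh11 and Actg2 were higher and none lower, against 0.820% called and 0.354% higher, and all 8 differences were positive with a median of 0.83, where the median of all tested probe sets was -0.01. Fitted on the arrays of only the compared groups, none of the 48 and 72 h calls was made.

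For the mean over 24, 48 and 72 h, where 5 of the 8 genes were higher, all 8 differences were positive, with a median of 0.62 beside -0.01 for all tested probe sets. Cnn1, Myh11 and Tagln, at 1.84-, 1.89- and 1.83-fold, kept the call without any 1 of the replicates that could be left out. Wild type 24 h replicate 1b, alone in its group on type A, could not be. On the second tested probe set of Myh11 the mean difference was 0.20 ± 0.10 and not called (limma, adjusted p = 0.517). On type A, all 6 mutant oxygen arrays lay above all 5 wild type oxygen arrays for Acta2, Actg2 and Tagln, 3 of the 8 genes, and 0.670% of the tested probe sets of that type were separated in this way. Myh11 missed this by little, its lowest mutant array at 1054 and its highest wild type array at 1062, and Cnn1 overlapped because of the wild type 24 h array at 1516.

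The response from 0 to 72 h itself differed between genotypes for Cnn1 and Tagln, and both differences were positive. For Cnn1 the mutant's response exceeded that of wild type by 2.13 ± 0.24 (adjusted p = 0.00274), made up of a rise of 1.51 in the mutant and a fall by 0.62 in wild type, and this held without any 1 replicate that could be left out. For Tagln it was 1.24 ± 0.24 (adjusted p = 0.0395), and the call was lost without either replicate of wild type 0, 48 or 72 h or of mutant 24, 48 or 72 h (adjusted p from 0.0575 to 0.128) and with a floor in place of the added value (0.0522). Among all probe sets 1.37% were called in this comparison and 0.574% were higher. Both values rest on the single mutant 0 h array, where Cnn1 was lower than in wild type. For the step from 48 to 72 h, which does not use that array, none of the 8 genes was called by limma and 2 had an unadjusted p under 0.05 (Tagln 0.57 ± 0.21 and Myh11 0.57 ± 0.22), where 0.0336% of all probe sets were called.

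The 8 genes did not move as 1 block. Over the 13 arrays of type A other than mutant 0 h, Pearson's r of the log2 values was 0.90 for Acta2 with Cnn1, 0.84 for Actg2 with Tagln and 0.78 for Tagln with Myl9. It was 0.23 for Myh11 with Myl9, the heavy and the light chain of the same motor. Tpm2 ranged from -0.12 to 0.14 with the other 7. On each array the 8 genes were read from the same RNA under the same scaling, and replicates of a group share its level. The values therefore describe these arrays and carry no test.

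The genes most like the mean of the 8 over those 13 arrays were Snapc2 (r = 0.93), C1qa (0.93), Ccnd1 (0.90), Anxa5 (0.89), Chrnb1 (0.88), C1qb (0.86), Alox15 (0.86) and Pcgf2 (0.85). With the mutant 0 h array included, Ccnd1, Anxa5, C1qa and C1qb fell to between 0.51 and 0.67, and Chrnb1 and Alox15 stayed at 0.88 and 0.84. Chrnb1 encodes a subunit of the muscle acetylcholine receptor, C1qa and C1qb chains of complement C1q, and Ccnd1 cyclin D1.

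Of 27 other genes of the contractile apparatus, 7 were higher and 1 lower at 72 h against 0 h in wild type, where 7.86% of all probe sets were called. In the mutant 8 were higher and 2 lower, where 21.6% of all probe sets were called, and against wild type 0 h 7 were higher and 1 lower, where 12.9% were. None was called by limma between genotypes in the mean of the oxygen times, although 9 of the 27 had an unadjusted p under 0.05 there. Actn1, the alpha actinin that cross-links actin, rose by 1.67 ± 0.15 in wild type and 2.29 ± 0.18 in the mutant (adjusted p = 0.000144 and 3.35e-05). Vcl, or vinculin of adhesion sites, rose by 1.37 ± 0.15 and 1.47 ± 0.19 (adjusted p = 0.000603 and 0.000462). Cald1, which encodes caldesmon, rose by 0.98 ± 0.20 and 1.90 ± 0.20 (adjusted p = 0.0113 and 7.83e-05). In the mutant Myh9, a non-muscle myosin heavy chain, rose by 2.71 ± 0.32 (adjusted p = 0.000305), and in wild type Ppp1r12a, a subunit of myosin phosphatase, rose by 1.46 ± 0.27 (adjusted p = 0.0063). With wild type 0 h as the reference the mutant values of Actn1, Vcl, Cald1 and Myh9 were 2.16 ± 0.15, 1.59 ± 0.15, 1.83 ± 0.20 and 2.02 ± 0.26, all called. With that reference Ppp1r12a was also called higher in the mutant, at 1.46 ± 0.27 (adjusted p = 0.00425). For the mean genotype difference the smallest p-values were those of Cald1 (0.52 ± 0.12, adjusted p = 0.0542), Smtn (0.98 ± 0.22, 0.0695), Actn1 (0.36 ± 0.09, 0.126) and Vcl (0.32 ± 0.10, 0.194). The median over the 27 was 0.11, beside 0.62 for the 8 contractile genes.

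Of 17 genes around serum response factor, Myocd, the myocardin coactivator, was the only one called in the mean genotype difference, at 0.57 ± 0.12 higher in the mutant (adjusted p = 0.0298). The next were Csrp1 (0.34 ± 0.10, adjusted p = 0.159), Klf5 (0.24 ± 0.12, 0.506) and Csrp2 (-0.18 ± 0.10, 0.572), and the median of the list was 0.09. At 72 h against 0 h, 3 of the 17 were higher and 1 lower in wild type, where 7.86% of all probe sets were called, and 5 higher and 2 lower in the mutant, where 21.6% were called, 11.0% higher and 10.5% lower. The mutant had 3 of the 17 higher and 1 lower against wild type 0 h, where 12.9% of all probe sets were called and 6.25% were higher. The 3 were Klf5, Klf4 (0.73 ± 0.21, adjusted p = 0.0483) and Srf, serum response factor itself (0.56 ± 0.16, adjusted p = 0.0431). Klf5, a factor known from injured vessel walls, rose by 1.05 ± 0.19 in wild type and 1.64 ± 0.24 in the mutant (adjusted p = 0.00884 and 0.000854). Wild type also had higher Klf4 (0.90 ± 0.21) and Jag1 (0.74 ± 0.21) and lower Csrp1 (-0.60 ± 0.15). The mutant had higher Jag1 (0.71 ± 0.21) and Foxf1 (0.70 ± 0.21) and lower Mef2c (-1.53 ± 0.28) and Csrp2 (-0.71 ± 0.20). Set against wild type 0 h, the mutant's Klf5 (1.28 ± 0.19, adjusted p = 0.00197) and Mef2c (adjusted p = 0.0373) kept their calls, while Jag1 (0.41 ± 0.21), Foxf1 (0.45 ± 0.21) and Csrp2 (0.07 ± 0.16) did not pass.

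Of 13 channels and receptors of smooth muscle, none was called higher at 72 h against 0 h in either genotype, and 2 were lower in wild type and 4 in the mutant, beside the shares of 7.86% and 21.6% of all probe sets. Earlier, against its own 0 h arrays, the mutant had calls in both directions. At 24 h Itga8 (1.47 ± 0.25), Npnt (0.73 ± 0.21) and Gucy1a1 (0.67 ± 0.18) were higher and Pln lower, and at 48 h Itga8 (1.25 ± 0.25) and Npnt (1.07 ± 0.21) were higher and Pln and Atp2a2 lower, where 24.4% and 17.9% of all probe sets were called. With wild type 0 h as the reference none was higher and 1 lower at 24 h, and 1 higher and 1 lower at 48 h. Of all probe sets 10.3% and 6.47% were called in these 2 comparisons. At 72 h Pln, which encodes phospholamban, the brake on the calcium pump of muscle stores, fell by 1.49 ± 0.28 in wild type and 2.58 ± 0.28 in the mutant (adjusted p = 0.00637 and 8.14e-05). Atp2a2, the pump itself, fell by 1.08 ± 0.26 and 1.07 ± 0.32 (adjusted p = 0.0332 and 0.0378). At 72 h the mutant also had lower Gucy1a1 (-0.94 ± 0.18) and Gucy1b1 (-0.96 ± 0.20), the subunits of the nitric oxide receptor. All 4 mutant falls were also called against wild type 0 h, at -2.46 ± 0.28 for Pln, -0.95 ± 0.26 for Atp2a2, -1.02 ± 0.18 for Gucy1a1 and -0.92 ± 0.20 for Gucy1b1. In the mean genotype difference Pln alone was called, at -0.74 ± 0.16 (adjusted p = 0.0446), followed by Agtr1a (-0.32 ± 0.09, adjusted p = 0.164), Gucy1b1 (-0.26 ± 0.12, 0.453) and Chrm2 (-0.33 ± 0.15, 0.458). Pln and Atp2a2 are also heart muscle genes. Of 9 heart muscle markers 7 were lower at 72 h in wild type and 6 in the mutant, beside the same shares of 7.86% and 21.6%. Against wild type 0 h, 6 of the 9 were lower in the mutant, where 12.9% of all probe sets were called. The summed signal of these markers on type A was 36596 to 38300 in wild type at 0 h and 9919 to 10066 at 72 h. In the mutant it went from 45230 to between 10711 and 11202. The part of heart muscle RNA in the values of Pln and Atp2a2 was not tested.

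Of 11 fibroblast and pericyte markers, 5 were higher in the mutant in the mean of the oxygen times and none lower (median 0.49), where 0.589% of all probe sets were higher: Tnc (1.09 ± 0.15), Fbln1 (0.68 ± 0.10), Col3a1 (0.62 ± 0.10), Col1a1 (0.65 ± 0.11) and Eln (0.93 ± 0.18). At 24 h none was called by limma (median -0.23), at 48 h 2 were higher, at 72 h 3, and at 0 h 2. In the same order 0.157%, 0.377%, 0.820% and 2.75% of all probe sets were called. Their summed signal over the 10 genes on type A was 17480 to 18600 in wild type at 0 h, 36866 at 24 h, 27301 to 27327 at 48 h and 22565 to 24472 at 72 h. In the mutant it was 27243, 33659 to 36907, 45783 to 53171 and 40139 to 40682. At 24 h the single wild type array lay within the mutant range, and the mutant sum was higher without overlap at 48 and 72 h. At 0 h the mutant sum is that of 1 array, which stood apart from the rest, and it lay above both wild type arrays. Contractile genes were called higher in the mutant at 48 and 72 h. At 0 h Cnn1 alone was called, and lower, with the single type A array of the mutant. The part of fibroblast or pericyte RNA in those calls was not tested. Pdgfrb (0.46 ± 0.10, adjusted p = 0.0745) and Rgs5 (-0.10 ± 0.12, adjusted p = 0.846), the pericyte markers of the list, did not pass.

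Most skeletal and squamous markers were higher in the mutant than in wild type at 0 h. Of 7 tested skeletal muscle markers 6 were higher in the mutant at 0 h, led by Acta1 (3.54 ± 0.30), and of 8 squamous markers 5 were. In that comparison 2.75% of all probe sets were called. At 72 h against its own 0 h arrays the mutant had 6 of the 7 skeletal markers lower, where 21.6% of all probe sets were called. Against wild type 0 h it had 3 of the 7 lower, where 12.9% were called. Neither list had a member called by limma in the mean genotype difference under oxygen, and 1 of 7 and 2 of 8 had an unadjusted p under 0.05. Summed skeletal signal was 778 to 1079 in the mutant at 72 h and 648 to 742 in wild type. The part of skeletal muscle RNA in the mutant 0 h values of Tpm2 and Des was not tested. Of 9 heart muscle markers 2, Nppa (-0.87 ± 0.15) and Myl4 (-0.65 ± 0.12), were lower in the mutant in the mean genotype difference under oxygen and none higher. There 1.25% of all probe sets were called.

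**Figure D4:**
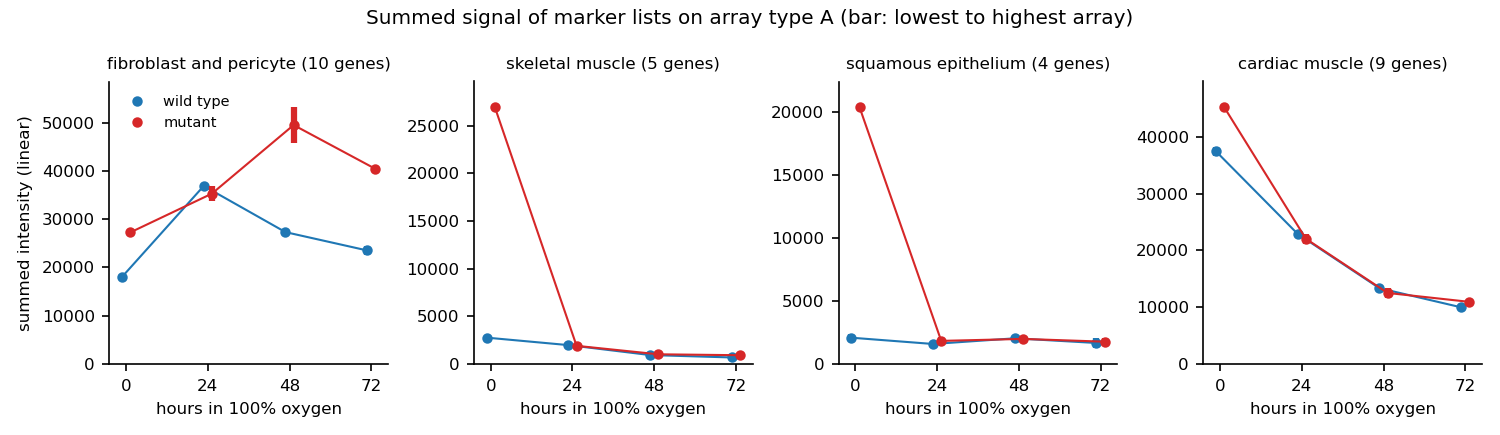
Summed deposited intensity (linear, vertical axis) of 4 marker lists on type A against hours in oxygen; points are group means, bars run from the lowest to the highest array, blue is wild type and red the mutant. The fibroblast and pericyte sum was 22565 to 24472 in wild type and 40139 to 40682 in the mutant at 72 h, and the skeletal and squamous sums were highest on the mutant 0 h array, at 26937 and 20377.

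Among markers of other lung cells, none of 6 endothelial, 4 alveolar type 2, 4 alveolar type 1 or 3 club cell markers was called by limma in the mean of the oxygen times, and 1, 1, 2 and 1 of them had an unadjusted p under 0.05. Of 4 neutrophil markers 2 were lower in the mutant and none higher, and of 4 macrophage markers 1 was lower, where 1.25% of all probe sets were called. The neutrophil sum on type A at 72 h was 3711 to 4155 in the mutant and 14459 to 15560 in wild type. At 48 h all 4 neutrophil markers were lower in the mutant, where 0.377% of all probe sets were called. At 24 h the sum was higher in the mutant, 16501 to 17742 against 7076 on the single wild type array of type A. S100a8 was called higher there (1.26 ± 0.18, adjusted p = 0.0255), where 0.157% of all probe sets were called.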

How the data were processed

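Lung RNA was measured on 46 oligonucleotide arrays of types A, B and C (14, 16 and 16 arrays). What was deposited for each array is 1 linear intensity per probe set, and how the authors computed it is not given in the sources used here. Their mean after trimming 2% at each end was about equal on all arrays of a type (800.396 to 800.516 on A), so the authors' scaling was kept. After removal of AFFX controls, the 25th percentile of the array type (78.5, 126 and 106) was added to each intensity and log2 was taken. limma 3.58.1 in R 4.3.3 was fitted per array type with 1 mean per genotype and time, and groups with 1 array are assumed to vary like the others. Of 26821 tested probe sets, 21856 had 1 symbol, 546 several and 4419 none in the platform annotation. Positions and promoters came from RefSeq tables of GRCm38.p6. The fit was tested on simulated data.

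The members, the gene lists and the comparisons were chosen with earlier results of these data known. The lists were the contractile apparatus, serum response factor control, channels and receptors, and markers of the cells named in the report; from the first 3, up to 4 genes with the smallest p-values were named for the mean genotype difference and for 72 h in each genotype, with the 8 genes most like the members' mean. Alternatives were a floor, quantile normalization, no or a stricter filter, the compared groups alone, a replicate block, trend and robust variance, a gene's second probe set, wild type 0 h as reference and leaving out each replicate, and, chosen after seeing the data, leaving out all mutant 0 h arrays. The number of arrays limits the precision.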

Additional observations from a re-analysis of the deposited data

Results flagged for a closer look

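The response to 72 h of oxygen differed between genotypes for Cnn1, by a log2 difference of 2.127 (adjusted p = 0.00274), and for Tagln, by 1.237 (adjusted p = 0.0395), by limma's test of the difference itself. Cnn1 went from 970 and 1097 to 621 and 668 in wild type and from 554 to 1804 and 1640 in the mutant. Tagln went from 4801 and 4391 to 3036 and 2901 in wild type and from 5411 to 8005 and 8727 in the mutant. The mutant start value of each is 1 array that stood apart from the others.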

How the results depend on the processing

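Counts below are of the 8 genes called. Fitted on only the arrays of the groups compared, the counts were 0 for wild type at 24, 48 and 72 h against 0 h (1, 4 and 2 before), 3 for the mutant at 72 h (6 before), 0 for the mutant from 48 to 72 h (1 before), 0 for the genotype difference at 0, 48 and 72 h (1, 2 and 4 before) and 1 for the difference in response from 0 to 72 h (2 before). With the second brightest probe set of Myh11 and Acta2 they were 0 and 2 for wild type at 24 and 48 h, 1 for the mutant at 24 h and 3 for the genotype mean, and the sign turned for Myh11 against 0 h (wild type -0.31 and -0.28 at 24 and 48 h; mutant -0.49, -0.23 and -0.19 at 24, 48 and 72 h) and Acta2 (wild type 0.33 at 48 h, mutant -0.24 at 24 h, genotype mean -0.41). Against wild type 0 h the mutant count at 48 h was 1 (3 before). The stricter filter gave 2 for the mutant from 48 to 72 h and 1 for the genotypes at 24 h (1 and 0 before), trend and robust variance 2 for the former, quantile normalization 0 for the genotypes at 0 h and the floor 1 for the difference in response. The floor also ended the calls of Acta2 (wild type 48 h, mutant 24 h) and Actg2 (genotypes at 72 h and mean), no filter those of Acta2 at the same times and Actg2 at 72 h, and quantile normalization that of Actg2 at 72 h, as given in the report. With 1 replicate left out the counts ranged from 0 to 1, 0 to 4 and 0 to 2 for wild type at 24, 48 and 72 h, 2 to 4, 2 to 3 and 3 to 6 for the mutant, 0 to 1 for the mutant from 48 to 72 h, 0 to 1, 0 to 2 and 2 to 4 for the genotypes at 0, 48 and 72 h, 3 to 5 for the mean and 1 to 2 for the difference in response. Without mutant 0 h or wild type 24 h replicate 1b no type A array of that group is left, so comparisons that need it had no value there. The cause of these changes was not tested. Over all probe sets, the genotype mean had 336 calls, 435 with trend and robust variance and 310 with the compared groups alone. Of 2830 values of single genes under alternatives, 2587 kept direction and side of the threshold, 171 lost the call and 21 gained it; the sign turned in 8 whose first value was called, printed here, and in 43 whose first value was not, 7 of them with the second probe set.

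With a replicate block the count was 1, 4 and 3 for wild type at 24, 48 and 72 h. Whether the numbers 1a and 1b pair samples is not in the labels. Deviations of samples with the same number had a median correlation of 0.096 on type A, 0.127 on B and 0.040 on C. The correlation was over 0.1 in 7 of 15 pairs of groups on type A, 18 of 28 on B and 2 of 28 on C. These values do not settle whether a shared animal, day or batch lies behind a number.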
